A study of Homo sapiens with 12 samples.

Results

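Expression of 10 genes of the Wnt pathway outside the catenins was described in A375, an established human melanoma cell line. The genes were chosen by symbol, and all 10 (APC, AXIN1, AXIN2, BCL9, BTRC, DKK1, DKK3, DVL1, DVL2 and DVL3) were among the 4918 genes analysed, whose symbols run from A1BG to FAM46B. The cells were sampled in 4 groups of 3: control, labelled as given no treatment; SB-3CT, an inhibitor of the gelatinases MMP2 and MMP9; interferon gamma (IFNγ); and SB-3CT together with IFNγ. The 3 treated groups had 24 h of treatment, and the title of the series calls the controls vehicle cells. All 12 samples came from a single cell line, and no label says that replicates were separate cultures, so p-values measure the spread between these samples, which may be technical. Expression is in FPKM, a count of fragments per length of transcript that is scaled to all mapped fragments of a sample. A log2 change is a difference between group means of log2(FPKM + 1), a scale on which changes of low genes come out too small. The interaction is the SB-3CT change in the presence of IFNγ minus the change in its absence. A change was called at a Benjamini-Hochberg adjusted p-value below 0.05 from limma over all 4918 genes.

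Wnt ligands act through Frizzled receptors and the co-receptors LRP5 and LRP6. In the absence of a ligand, a destruction complex built on APC and the axins marks β-catenin for degradation through the F-box protein BTRC (β-TrCP). With a ligand, the Dishevelled proteins (DVL1, DVL2 and DVL3) recruit axin to the membrane, β-catenin accumulates, and in the nucleus it binds TCF/LEF factors together with co-factors such as BCL9. The dickkopf protein DKK1 is secreted and blocks the co-receptors, while DKK3 is a divergent member of that family. The pathway is known for its part in the formation of melanocytes from the neural crest.

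As a description, promoters are given for 4 members, and a link between these sequences and the levels was not tested. BCL9, DVL2 and DVL3 were the members whose response to SB-3CT differed with IFNγ on the deposited scale, and DKK1 was the member with the highest level. The sequences are those of RefSeq on GRCh38.p14, 300 bases from 250 before to 50 after the gene start, read 5′ to 3′ on the strand of the gene. Capitals mark matches to the letters CTTTGAT, the letters CTTTGAA, the letters CTTTGTT or the letters CTTTGTA (all bound by TCF/LEF factors) or to CACGTG (an E-box), searched on both strands. The windows lie at chr10:52314031-52314330 on the plus strand (DKK1), chr17:7234468-7234767 on the minus strand (DVL2), chr3:184155127-184155426 on the plus strand (DVL3) and chr1:147541251-147541550 on the plus strand (BCL9).
DKK1: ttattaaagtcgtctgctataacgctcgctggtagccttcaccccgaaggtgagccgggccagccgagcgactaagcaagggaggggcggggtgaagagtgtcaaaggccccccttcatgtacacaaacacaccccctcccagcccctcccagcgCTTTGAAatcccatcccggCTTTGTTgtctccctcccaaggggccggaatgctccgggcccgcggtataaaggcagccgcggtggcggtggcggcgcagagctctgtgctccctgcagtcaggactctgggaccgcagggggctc
DVL2: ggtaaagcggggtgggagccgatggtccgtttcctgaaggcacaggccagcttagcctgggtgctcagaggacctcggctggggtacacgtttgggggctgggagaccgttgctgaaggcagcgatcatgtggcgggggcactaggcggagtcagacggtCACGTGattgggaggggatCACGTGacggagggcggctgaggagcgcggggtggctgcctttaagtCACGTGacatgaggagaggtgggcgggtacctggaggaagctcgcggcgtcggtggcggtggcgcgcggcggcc
DVL3: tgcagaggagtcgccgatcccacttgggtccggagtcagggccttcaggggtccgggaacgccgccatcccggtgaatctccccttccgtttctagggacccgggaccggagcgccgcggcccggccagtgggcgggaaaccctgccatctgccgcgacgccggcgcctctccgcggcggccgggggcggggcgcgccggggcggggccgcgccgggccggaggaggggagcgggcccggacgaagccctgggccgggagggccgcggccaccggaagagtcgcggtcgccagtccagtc
BCL9: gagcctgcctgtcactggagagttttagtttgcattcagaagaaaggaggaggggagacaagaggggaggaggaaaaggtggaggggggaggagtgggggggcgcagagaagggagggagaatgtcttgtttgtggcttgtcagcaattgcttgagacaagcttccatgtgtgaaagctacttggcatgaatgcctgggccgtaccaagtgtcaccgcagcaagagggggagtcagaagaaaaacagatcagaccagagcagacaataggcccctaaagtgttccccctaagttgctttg

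The DKK1 window held 2 TCF/LEF matches, a number reached by 1.58% of 35116 RefSeq promoters of this length, while 13.75% held at least 1. DVL2 held 3 E-boxes, each with the letters CACGTG and none of them overlapping, where 0.09% of promoters held 3 or more and 7.26% held at least 1. The DVL3 and BCL9 windows held neither. The letters TTCNNNGAA, linked to the response to IFNγ and present in 7.66% of promoters, were in none of these 4 windows. Of the members' windows not shown, only an APC window held these letters, and a second APC window held an E-box. GC content was 53.0% for BCL9, 63.7% for DKK1, 67.0% for DVL2 and 77.7% for DVL3, with a median of 58.7% over all promoters. Entries were found for 7 of the 10 members, and AXIN2, BTRC and DKK3 had none. A match of letters is a description of the window and not a binding site.

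Several facts of the whole series bear on the values. Relative depth, read from the steps that single reads leave in the lowest FPKM values, ran from 87.1% to 150.1% of the mean of the controls, and the absolute depth is unknown. CXCL10, a gene induced by interferon, was between 78.7 and 122 FPKM in the 6 samples given IFNγ and at most 0.050 in the other 6. Of genes listed for the melanocyte lineage, ERBB3, CSPG4, CD63 and EDNRB were present in every sample (the lowest value, of EDNRB, was 4.0 FPKM). DCT, which makes a precursor of melanin, was at most 0.384. Of genes listed for a melanoma state of low differentiation, AXL was between 39.9 and 60.3 FPKM and EGFR between 0.914 and 2.24. How particular these genes are to that lineage or state was not tested. The 8 measured markers of epithelial, immune, fibroblast and endothelial cells were at most 0.468. On the deposited scale the median log2 change of the 3177 genes with a mean of at least 1 FPKM was -0.20 for SB-3CT + IFNγ against IFNγ and -0.21 against SB-3CT, and it was -0.03 and -0.04 for SB-3CT and IFNγ against control. This shift moved with transcript length: for SB-3CT + IFNγ against IFNγ the median change was 0.08 for the shortest of 4 length classes of about equal size (up to 1866 bases) and -0.41 for the longest (from 4871 bases). Values after scaling by the median ratio, after quantile normalization and after removal of each sample's trend with length are therefore given beside the deposited values. The part of length in the changes of single members was not tested.

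Levels of the 10 genes spanned more than 3 orders of magnitude, DKK1 being at the top and AXIN2 near 0. Over the 12 samples the mean was 136 FPKM for DKK1, above 96.4% of all genes analysed. DVL1 followed with 52.9, DVL2 with 20.9, AXIN1 with 11.3 and DVL3 with 11.2. The lower members were BCL9 with 4.92, BTRC with 3.11, DKK3 with 2.24, APC with 1.97 and AXIN2 with 0.0421. Within the Dishevelled family, DVL1 was above DVL2 and DVL2 above DVL3 in every sample. AXIN1 and DVL3 were neighbours in this order whose ranges over the 12 samples overlapped. From BCL9 down to APC the ranges of each pair of neighbours overlapped as well, though BCL9 was above BTRC within every sample. Of the 10 members, 9 had a mean of at least 1 FPKM, and AXIN2 did not.

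**Figure D1:**
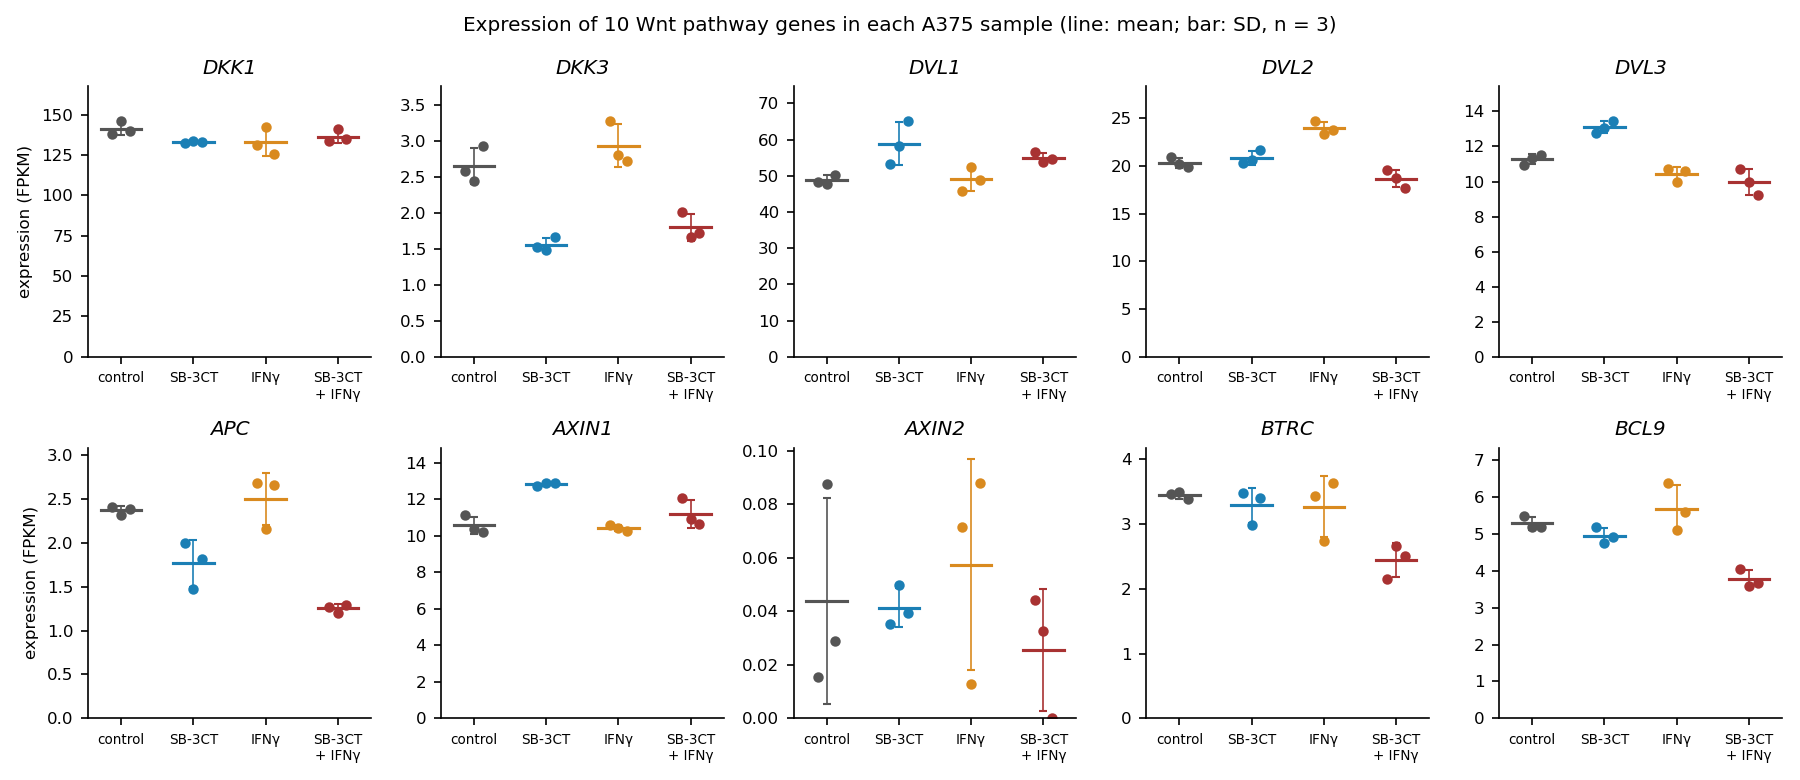
Expression of each gene in FPKM (y axis, from 0, with its own range in each panel) in the 4 groups (x axis), where points are the 3 samples, the line is their mean and the bar is the SD. The 3 SB-3CT + IFNγ samples of APC sit between 1.20 and 1.3, below every other sample, and DKK3 is low in both groups given SB-3CT.

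The question of the design was how SB-3CT changes expression with and without IFNγ. SB-3CT alone was followed by 2 rises and 1 fall among the 10 members, IFNγ alone by 1 rise, and SB-3CT added to IFNγ by 4 falls and 0 rises. AXIN1 and DVL3 rose and DKK3 fell with SB-3CT against control, where limma called 12.2% of all genes (5.37% higher and 6.87% lower). In that comparison 5 members and 1478 of all 4918 genes were at an unadjusted p below 0.05. DVL2 alone rose with IFNγ against control, where 19.5% of all genes were called (8.46% higher and 11.0% lower). Here 1 of the 10 members was at an unadjusted p below 0.05, beside 1630 of all 4918 genes. APC, BCL9, DKK3 and DVL2 were lower with SB-3CT + IFNγ than with IFNγ, where 37.9% of all genes were called (6.41% higher and 31.5% lower), so that 4 members in 10 were near the share of all genes. For SB-3CT + IFNγ against IFNγ, 6 members were at an unadjusted p below 0.05, beside 2286 of all 4918 genes. After median ratio scaling the same comparison had 3 members called higher (AXIN1, DKK1 and DVL1) and 3 lower (APC, BCL9 and DKK3), beside 16.5% and 15.5% of all genes. The samples are bulk RNA, in which fewer cells of a kind and less RNA per cell cannot be told apart.

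Between SB-3CT + IFNγ and SB-3CT, 5 members were called lower (APC, AXIN1, BCL9, BTRC and DVL3) and 0 higher, beside 40.5% of all genes called (7.85% higher and 32.7% lower). At an unadjusted p below 0.05 were 6 members and 2419 of all 4918 genes. None of the 5 members called lower was called after median ratio scaling, quantile normalization or removal of the length trend. AXIN1 then took a positive sign under the first and the last of these scalings (0.06 and 0.03). With 1 sample left out at a time, 0 to 5 members were called for SB-3CT against control, 0 or 1 for IFNγ against control, 4 to 6 for SB-3CT + IFNγ against IFNγ and 2 to 4 for SB-3CT + IFNγ against SB-3CT. The comparisons share samples, so their results are not independent of each other. Between 3 samples and 3, an exact permutation test of a single gene cannot give a p-value under 0.1, and groups without overlap reach that value.

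The samples of the groups compared did not overlap for 6 of the 10 members with SB-3CT against control (33.9% of all genes), for 2 with IFNγ against control (36.9%), for 7 with SB-3CT + IFNγ against IFNγ (49.0%) and for 7 with SB-3CT + IFNγ against SB-3CT (51.7%). For SB-3CT against control, the members called were AXIN1, DKK3 and DVL3 under each of the 3 scalings, beside 13.8% of all genes by median ratio, 13.5% by quantile normalization and 15.5% without the length trend. For IFNγ against control DVL2 was called under all 3, and DVL3 (-0.17) without the length trend only, beside 22.3%, 23.7% and 26.5% of all genes. For SB-3CT + IFNγ against IFNγ, 6, 3 and 5 members were called, beside 31.9%, 25.5% and 18.5%. For SB-3CT + IFNγ against SB-3CT, 2, 1 and 1 were called, beside 24.0%, 27.6% and 25.9%, and these were DKK1 and DKK3, both higher. For the interaction, 1, 1 and 0 were called, beside 13.0%, 13.0% and 8.5%. APC was therefore the member called lower for SB-3CT + IFNγ against IFNγ at every one of these scalings, and BCL9, DKK3 and DVL2 kept a negative sign.

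**Figure D2:**
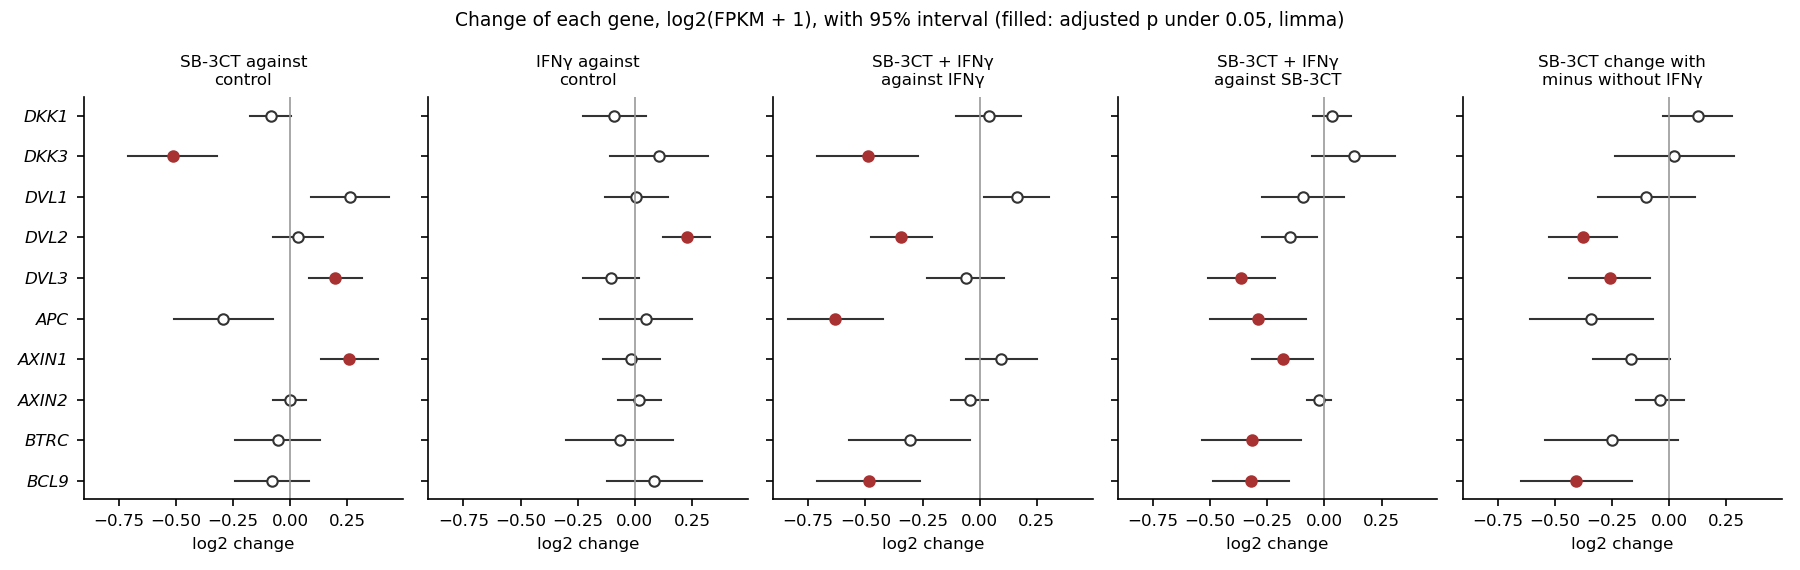
Log2 change of each gene on the scale of log2(FPKM + 1) (x axis) with its 95% interval in the 4 comparisons and in the interaction, where filled points have an adjusted p below 0.05. DKK3 lies to the left of 0 by about the same distance for SB-3CT against control and for SB-3CT + IFNγ against IFNγ (-0.51 and -0.49), whereas APC lies at -0.29 and -0.63.

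Of the secreted members, DKK3 was lower wherever SB-3CT was given, and DKK1 moved by less than 0.10 in each of the 4 comparisons on the deposited scale. DKK3 lies on chromosome 11 (hg19, chr11:11977754-12031316, minus strand, 7 exons in a transcript of 2525 bases). It was at 2.59, 2.45 and 2.94 FPKM in the controls and at 1.53, 1.49 and 1.66 with SB-3CT. With IFNγ it was at 3.28, 2.81 and 2.73, and with both agents at 2.02, 1.67 and 1.72. Every sample given SB-3CT was below every sample without it. The fall with SB-3CT was 0.51 on the log2 scale (log2 change -0.51 ± 0.08, SE; limma adjusted p = 0.0153) and the fall when SB-3CT was added to IFNγ was of similar size (-0.49 ± 0.10, SE; limma adjusted p = 0.00671). The interaction was 0.02 for DKK3 (95% interval -0.24 to 0.28), so a difference of up to 0.28 in size lies within the interval. SB-3CT against control kept its call under the 3 scalings (-0.48 by median ratio, -0.41 by quantile normalization and -0.50 without the length trend). In the presence of IFNγ the change was -0.32 by median ratio and -0.36 without the length trend, both called, and -0.22 by quantile normalization (limma adjusted p = 0.0954). Leaving out any of the 3 controls or SB-3CT replicate 2 or 3 ended the call against control, with limma adjusted p-values from 0.0563 to 0.0649, and without SB-3CT replicate 1 it was 0.0236. IFNγ itself was followed by a change of 0.11 against control (95% interval -0.11 to 0.32), with overlapping samples.

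DKK1, on chromosome 10 (hg19, chr10:54074041-54077802, plus strand, 4 exons in a transcript of 1805 bases), was at 138, 146 and 140.0 FPKM in the controls. It was at 132, 134 and 133 with SB-3CT, at 131, 142 and 125 with IFNγ, and at 133, 141 and 135 with both. Each SB-3CT sample was below each control, but the ranges of the other groups overlapped. The log2 change with SB-3CT was -0.09 (95% interval -0.18 to 0.00; limma adjusted p = 0.185), and no comparison of DKK1 was called on the deposited scale. After median ratio scaling DKK1 was called higher with SB-3CT + IFNγ than with IFNγ (0.29, limma adjusted p = 0.0314) and than with SB-3CT (0.30, limma adjusted p = 0.00625). Quantile normalization gave -0.03 and 0.06 for the same comparisons, neither of them called. Without the length trend they were 0.10, not called, and 0.12, called higher (limma adjusted p = 0.0458). Against IFNγ, DKK1 with both agents was thus negative by quantile normalization only, with a 95% interval across 0 (-0.16 to 0.10).

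Of the 3 Dishevelled genes, DVL3 rose with SB-3CT, DVL2 rose with IFNγ, and DVL1 passed the test in no comparison on the deposited scale. Whether the 3 genes differed from each other in their changes was not tested, and the change of DVL1 with SB-3CT (0.26) was not below that of DVL3 (0.20). DVL2 lies on chromosome 17 (hg19, chr17:7128661-7137836, minus strand, 15 exons in a transcript of 2989 bases). It was at 20.9, 20.2 and 19.8 FPKM in the controls and at 24.7, 23.3 and 23.8 with IFNγ. With SB-3CT it was at 20.3, 20.6 and 21.6, and with both agents at 19.5, 18.8 and 17.7. The IFNγ samples were above all other samples, and those with both agents were below them all. The rise with IFNγ against control was 0.23 ± 0.04 on the log2 scale (SE; limma adjusted p = 0.0153), and it was called under each of the 3 scalings (0.19 to 0.27). Leaving out control replicate 2 or 3 or IFNγ replicate 3 gave limma adjusted p-values of 0.0595, 0.0638 and 0.0579 for that rise.

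With SB-3CT added to IFNγ, DVL2 was lower than with IFNγ by -0.34 ± 0.06 (log2 change, SE; limma adjusted p = 0.00411). This call was kept with each of the 6 samples left out and by quantile normalization (-0.17), while the values by median ratio (-0.10, limma adjusted p = 0.173) and without the length trend (-0.09, limma adjusted p = 0.257) were not called. With SB-3CT alone the log2 change of DVL2 was 0.04 (95% interval -0.07 to 0.14), and the samples overlapped with the controls. The interaction was -0.38 ± 0.07 (SE; limma adjusted p = 0.0058, over 12 samples), where 22.3% of all genes were called (4.74% higher and 17.6% lower). It was called by quantile normalization too (-0.22), but not by median ratio (-0.17, limma adjusted p = 0.135) or without the length trend (-0.16, limma adjusted p = 0.207).

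DVL3, on chromosome 3 (hg19, chr3:183873165-183891402, plus strand, 15 exons in a transcript of 5269 bases), was at 11.0, 11.3 and 11.5 FPKM in the controls and at 12.7, 13.1 and 13.4 with SB-3CT. It was at 10.7, 9.97 and 10.6 with IFNγ and at 10.7, 9.96 and 9.22 with both agents. The SB-3CT samples were the highest and did not overlap with any other group, and those with IFNγ were all below the controls. The rise with SB-3CT was 0.20 ± 0.05 (log2 change, SE; limma adjusted p = 0.0444) and was called under each scaling (0.22 to 0.29). Without any of the 3 controls or SB-3CT replicate 2 or 3 its limma adjusted p was between 0.0958 and 0.127, and without SB-3CT replicate 1 it was 0.0295. DVL3 was lower with both agents than with SB-3CT on the deposited scale (-0.36 ± 0.06, SE; limma adjusted p = 0.00534), and by -0.12, -0.20 and -0.11 under the 3 scalings, none of which was called. Against IFNγ, the change with both agents was -0.06 as deposited but 0.17, 0.17 and 0.36 after median ratio scaling, quantile normalization and removal of the length trend, and the last was called (limma adjusted p = 0.0142). The interaction, -0.26 ± 0.08 (SE; limma adjusted p = 0.0397), was called only on the deposited scale among these 4, turned to 0.06 without the length trend, and lost its call in 10 of the 12 fits that left out a sample (limma adjusted p-values of 0.0516 to 0.0896; it was kept without IFNγ replicate 2 or SB-3CT + IFNγ replicate 1).

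DVL1, on chromosome 1 (hg19, chr1:1270656-1284798, minus strand, 15 exons in a transcript of 3305 bases), was at 48.3, 47.7 and 50.3 FPKM in the controls and at 53.3, 58.2 and 65.0 with SB-3CT. With IFNγ it was at 45.9, 52.4 and 48.8, and with both agents at 56.5, 53.7 and 54.5. Samples given SB-3CT did not overlap with their counterparts without it, in either background. The log2 change with SB-3CT was 0.26 ± 0.07 (SE; limma adjusted p = 0.0568) and in the presence of IFNγ it was 0.16 ± 0.06 (SE; limma adjusted p = 0.071), both just short of the threshold. Without SB-3CT replicate 1 the first was called (limma adjusted p = 0.0263), and without IFNγ replicate 2 the second (0.21, limma adjusted p = 0.0199). In the presence of IFNγ, scaling by the median ratio gave a called rise of 0.41 and removal of the length trend one of 0.46, and quantile normalization gave 0.22 (limma adjusted p = 0.059). With IFNγ alone the log2 change of DVL1 was 0.01 (95% interval -0.13 to 0.14), and the IFNγ samples lay on both sides of the controls.

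Among the members of the destruction complex, AXIN1 rose with SB-3CT and APC fell when SB-3CT was added to IFNγ, while BTRC had its lowest values with both agents and AXIN2 was near 0 throughout. APC, a scaffold of the complex and a tumour suppressor, lies on chromosome 5 (hg19, chr5:112043215-112181936, plus strand, 16 exons in a transcript of 10704 bases). It was at 2.41, 2.32 and 2.39 FPKM in the controls and at 2.00, 1.47 and 1.82 with SB-3CT. With IFNγ it was at 2.69, 2.16 and 2.67, and with both agents at 1.27, 1.20 and 1.3. The SB-3CT samples were all below the controls, and those with both agents were below every other sample. APC fell when SB-3CT was added to IFNγ (-0.63 ± 0.09, SE; limma adjusted p = 0.0027), and this was the largest change of a member in that comparison. It was called with each of the 6 samples left out and under each scaling, with -0.48 by median ratio, -0.39 by quantile normalization and -0.25 without the length trend. The APC transcript is longer than those of 97.4% of genes with a mean of at least 1 FPKM. Against control, the change with SB-3CT was -0.29 ± 0.09 (SE; limma adjusted p = 0.0816) and was called only when SB-3CT replicate 1 was left out, among the 6 fits of this kind (limma adjusted p = 0.0421). The interaction was -0.34 (95% interval -0.61 to -0.07; limma adjusted p = 0.0673) and passed the threshold without SB-3CT replicate 2 (limma adjusted p = 0.0291) or IFNγ replicate 2 (0.0215). APC was lower with both agents than with SB-3CT as deposited (-0.29, limma adjusted p = 0.039). That call held without SB-3CT replicate 2 but was lost in the other 5 fits with a sample left out (limma adjusted p-values of 0.0820 to 0.113).

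AXIN1, the scaffold that brings β-catenin together with its kinases, lies on chromosome 16 (hg19, chr16:337440-402723, minus strand, 11 exons in a transcript of 3707 bases). It was at 11.1, 10.4 and 10.2 FPKM in the controls and at 12.7, 12.9 and 12.9 with SB-3CT. With IFNγ it was at 10.6, 10.4 and 10.2, and with both agents at 12.1, 10.9 and 10.6. The SB-3CT samples were above all other samples, and those with both agents were above those with IFNγ, though the nearest pair rounds to the same value. The rise with SB-3CT was 0.26 ± 0.05 (log2 change, SE; limma adjusted p = 0.0265), called under each scaling (0.29 to 0.31). Its limma adjusted p was between 0.0519 and 0.0951 without any of the 3 controls or SB-3CT replicate 2 or 3, and 0.0285 without SB-3CT replicate 1. In the presence of IFNγ the change was 0.09 as deposited (95% interval -0.06 to 0.25), but it was called under the 3 scalings (0.33 by median ratio, 0.33 by quantile normalization and 0.41 without the length trend). AXIN1 with both agents was below its level with SB-3CT as deposited (-0.18, limma adjusted p = 0.0414), a call that held without SB-3CT + IFNγ replicate 1 and was lost in the other 5 fits with a sample left out (limma adjusted p-values of 0.0805 to 0.121). IFNγ alone was followed by a change of -0.02 (95% interval -0.14 to 0.11).

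BTRC, which recognises phosphorylated β-catenin, lies on chromosome 10 (hg19, chr10:103113790-103317078, plus strand, 15 exons in a transcript of 6024 bases). It was at 3.46, 3.50 and 3.39 FPKM in the controls, at 3.48, 2.98 and 3.41 with SB-3CT, at 3.44, 2.73 and 3.64 with IFNγ, and at 2.15, 2.67 and 2.51 with both agents. The samples with both agents were below all 9 others, whereas the other 3 groups overlapped. The fall against SB-3CT was called as deposited (-0.32 ± 0.09, SE; limma adjusted p = 0.0314) but not after leaving out SB-3CT replicate 1 or 3 or SB-3CT + IFNγ replicate 1 or 3 (limma adjusted p-values of 0.0760 to 0.0935). Against IFNγ the change was -0.31 (limma adjusted p = 0.0683), passed the threshold without IFNγ replicate 2 (-0.40, limma adjusted p = 0.0226), and became 0.06 when the length trend was removed.

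AXIN2, which is itself widely used as a readout of β-catenin activity, lies on chromosome 17 (hg19, chr17:63524681-63557766, minus strand, 11 exons in a transcript of 4260 bases). It was at 0.0153, 0.0877 and 0.0288 FPKM in the controls and at 0.0353, 0.0497 and 0.0393 with SB-3CT. With IFNγ it was at 0.0714, 0.0130 and 0.0880, and with both agents at 0.0441, 0.0326 and 0. All 4 groups overlapped. In 11 of the 12 samples these values, multiplied by relative depth, were whole multiples of a step of 0.0153 FPKM, to within 0.15 of a step. The step, given at the mean depth of the controls, was chosen to fit as many of these values as possible. A value of 0 matches any step, so the match is a description. The multiples ran from 0 to 7. At a level of so few steps a fall or a small change could go unseen, and no comparison of AXIN2 was called. The size of rise that could be seen at this depth was not tested.

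BCL9, which links β-catenin to Pygopus in the nucleus, was lowest with both agents. The gene lies on chromosome 1 (hg19, chr1:147013271-147098017, plus strand, 11 exons in a transcript of 6188 bases). It was at 5.50, 5.18 and 5.18 FPKM in the controls and at 5.18, 4.74 and 4.93 with SB-3CT. With IFNγ it was at 6.38, 5.10 and 5.58, and with both agents at 4.05, 3.58 and 3.68. The 3 samples with both agents were below the 9 others, and the other groups overlapped. BCL9 fell when SB-3CT was added to IFNγ (-0.48 ± 0.10, SE; limma adjusted p = 0.00738), a call kept with each of the 6 samples left out. The change was -0.28 by median ratio, also called, but -0.18 by quantile normalization (limma adjusted p = 0.113) and -0.07 without the length trend (limma adjusted p = 0.55). With SB-3CT alone the change was -0.08 (95% interval -0.24 to 0.08). The interaction was -0.41 ± 0.11 (SE; limma adjusted p = 0.0243) as deposited and -0.23, -0.20 and -0.09 under the 3 scalings, none of them called. It lost its call without control replicate 2 or 3, SB-3CT replicate 1 or SB-3CT + IFNγ replicate 2 or 3 (limma adjusted p-values of 0.0506 to 0.0597). BCL9 with both agents was also below its level with SB-3CT as deposited (-0.32 ± 0.07, SE; limma adjusted p = 0.0127), a call kept in all 6 fits with a sample left out and lost under the 3 scalings (-0.11, -0.13 and -0.08).

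**Figure D3:**
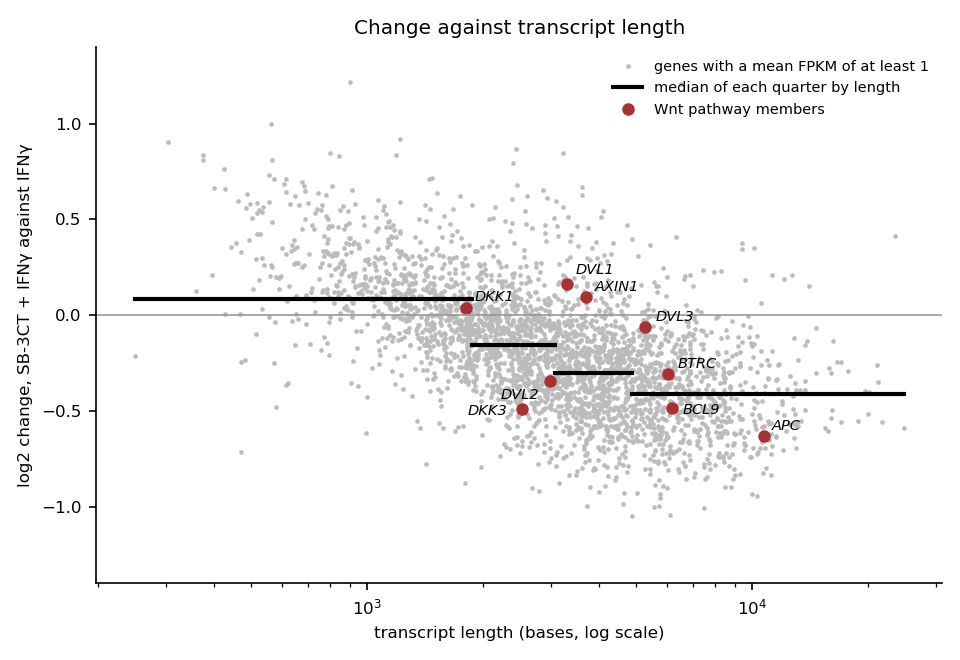
Log2 change of SB-3CT + IFNγ against IFNγ (y axis) against transcript length in bases (x axis, log scale) for genes with a mean of at least 1 FPKM (grey points), with the 9 members at that level in red and the median of each of 4 length classes as a black line. BCL9 and BTRC lie on either side of the median of the longest class (-0.41), APC lies below it at -0.63, DKK3 lies below the median of its own class (-0.16), and AXIN1 and DVL1 lie above theirs (-0.30).

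The plot against transcript length sets each member beside genes of like length in the comparison of SB-3CT + IFNγ with IFNγ, as a description. APC, BCL9 and BTRC have transcripts in the longest class, whose median change was -0.41, and their own changes were -0.63, -0.48 and -0.31. DKK3 and DVL2, in the class with a median of -0.16, were at -0.49 and -0.34. AXIN1 and DVL1 were in the class with a median of -0.30 and were at 0.09 and 0.16, DVL3 in the longest class was at -0.06, and DKK1 in the shortest class, with a median of 0.08, was at 0.04. For SB-3CT against control the medians of the 4 classes ran only from 0.04 to -0.11.

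**Figure D4:**
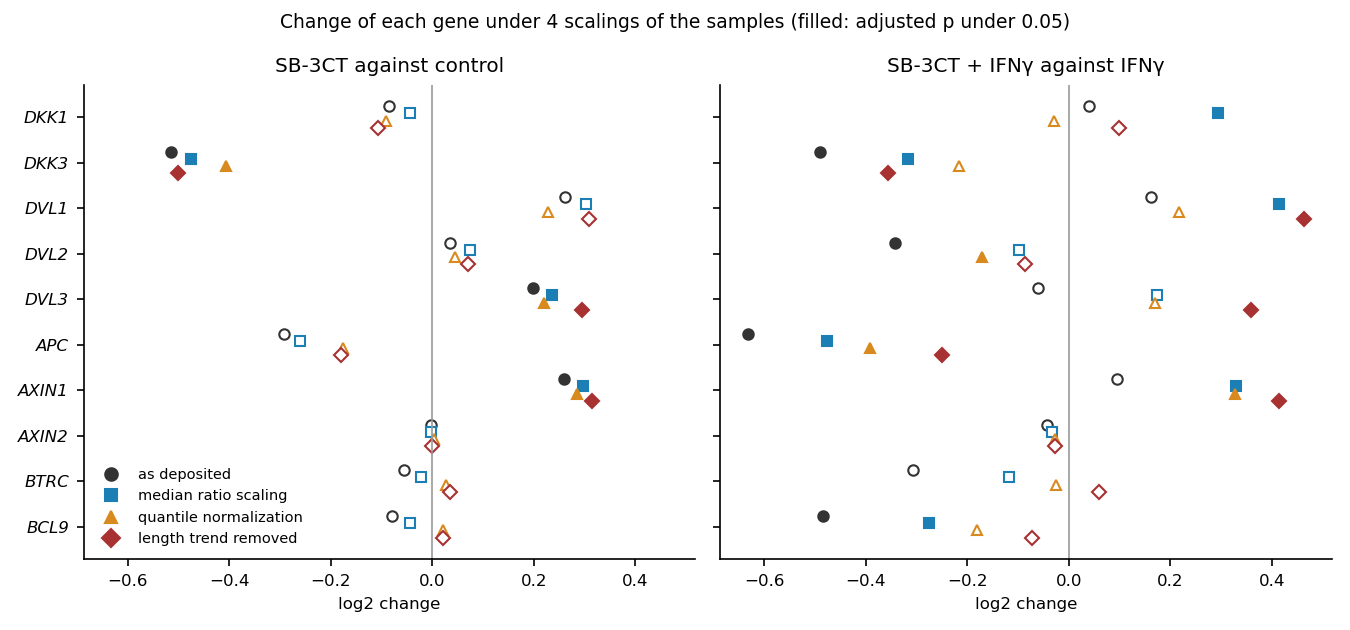
Log2 change of each gene (x axis) in 2 comparisons, as deposited and under 3 scalings of the samples, where filled symbols have an adjusted p below 0.05. For SB-3CT against control AXIN1, DKK3 and DVL3 are filled under all 4, while for SB-3CT + IFNγ against IFNγ APC alone is filled under all 4 and DVL3 turns from -0.06 to positive values under the other 3.

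Other genes of the pathway were taken from 6 lists written by hand, of which 55 genes outside the members were measured. With SB-3CT against control, 3 of the 55 rose and 5 fell (5.37% and 6.87% of all genes), with a median log2 change of -0.05 (-0.01 over all genes). CSNK1D, a casein kinase, and CTBP1, a transcriptional co-repressor, rose by 0.28 and 0.22, as did BIRC5 by 0.22. The falls of largest size, at a mean of at least 1 FPKM, were those of EPHB3 (-0.51), DIXDC1 (-0.39), CELSR3 (-0.33) and CTHRC1 (-0.27). CTHRC1 was not called by median ratio, BIRC5, CELSR3 and DIXDC1 were not called by quantile normalization, and CELSR3 was not called without the length trend, while CSNK1D, CTBP1 and EPHB3 were called under all 3. Rises and falls were 6 and 5 by median ratio, 4 and 4 by quantile normalization and 7 and 4 without the length trend. Over all 4918 genes they were 362 and 318, 346 and 320, and 401 and 360. In these lists the direction was therefore not common to the genes called.

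With IFNγ against control, 7 of the 55 rose and 5 fell, beside 8.46% and 11.0% of all genes (median 0.01; -0.02 over all genes). The ephrin receptors EPHB2 and EPHB3, both induced by β-catenin in intestinal cells, went in opposite directions, EPHB2 from 2.33 ± 0.0796 to 6.58 ± 0.439 FPKM (SD, n = 3) and EPHB3 from 3.36 ± 0.163 to 1.5 ± 0.135. CYLD, a deubiquitinase that acts on Dishevelled, rose by 0.88, and AMER1, an APC partner, by 0.46. CHD8 and CCND1 (cyclin D1) rose by 0.35 and 0.33. BAMBI and the atypical cadherin CELSR2 fell by 0.48 and 0.44. These 8 genes were called under each of the 3 scalings with the same sign.

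When SB-3CT was added to IFNγ, 31 of the 55 fell and 0 rose on the deposited scale (median -0.29; -0.09 over all genes, of which 31.5% were called lower). By list, 8 of 11 genes listed under destruction complex and degradation fell, 6 of 11 Dishevelled partners, 6 of 9 of the β-catenin-independent branch, 5 of 9 nuclear co-factors, 5 of 9 genes induced by β-catenin in other cell types and 1 of 6 secreted or surface modulators. The first list is wider than the complex itself and also holds CTNNB1, CUL1 and the kinases CSNK1G1, CSNK1G2 and CSNK1G3. The falls of largest size were those of CTNNB1 (-0.70), the β-catenin gene, CDC73 (-0.67), CSNK1G3 (-0.64) and CXXC5 (-0.63), which inhibits Dishevelled. CTNNB1 was at 89.3 ± 10.5 FPKM (SD, n = 3) with IFNγ and 54.4 ± 2.99 with both agents. Scaled by the median ratio, by quantiles and without the length trend, CTNNB1 was at -0.45, -0.71 and -0.36, CDC73 at -0.45, -0.39 and -0.25, CSNK1G3 at -0.43, -0.34 and -0.28, and CXXC5 at -0.40, -0.38 and -0.45. The count became 21 lower and 5 higher by median ratio, 16 and 1 by quantile normalization and 8 and 4 without the length trend. Over all 4918 genes, 760 lower and 811 higher, 714 and 542, and 446 and 462 were called under these scalings. CSNK1G3 was not called without the length trend.

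Between SB-3CT + IFNγ and SB-3CT, 30 of the 55 were lower and 3 higher, beside 32.7% and 7.85% of all genes (median -0.24; -0.11 over all genes). EPHB2 (1.03), CTHRC1 (0.43) and CYLD (0.38) were higher, and ENC1 (-0.80), EPHB3 (-0.71), BAMBI (-0.71), CELSR2 (-0.63) and CUL1 (-0.49) were among those lower. CUL1 was not called under any of the 3 scalings, which left 8, 14 and 12 genes lower, with 11, 17 and 15 called in either direction beside 24.0%, 27.6% and 25.9% of all genes. The interaction was called for 18 of the 55, beside 22.3% of all genes (17.6% lower), of which CTHRC1 alone was positive (0.34) and CHD8 (-0.59), ENC1 (-0.56), BCL9L (-0.52), EP300 (-0.52) and DAB2 (-0.52) were the most negative at a mean of at least 1 FPKM. BCL9L, the paralogue of BCL9, had an interaction of the same sign as BCL9, a sign shared by 17 of the 18 genes called. DAB2 was not called by median ratio (limma adjusted p = 0.0738) or quantile normalization (0.0754). Without the length trend 1 of the 55 was called, ENC1 (-0.26), beside 8.5% of all genes, and BCL9L was at -0.14.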

How the data were processed

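RNA of 12 samples of A375 cells, 3 in each of 4 groups, was sequenced. Per the labels, reads were aligned to hg19 with HISAT2 2.0.5, and FPKM were calculated with StringTie 1.3.3. The values the authors deposited fit log2 of FPKM + 1 and were used as such, with FPKM taken back by inversion. Genes after FAM46B in alphabetical order were not analysed here. Sample columns were identified by their names, with replicate numbers from the labels. No strand setting is given in the sources used here.

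Each pair of groups was tested in limma 3.58.1 under R 4.3.3, by lmFit and then eBayes (trend fitted to the variances, no pairing, 3 + 3 samples), and the interaction was fitted over 12 samples. P-values were adjusted by Benjamini-Hochberg over 4918 genes. On simulated data with 200 of 4918 genes changed, 99% were recovered between 2 groups (10 other genes called) and 96.5% for the interaction (15 others). These shares are for all 200 genes together, and recovery at the levels and change sizes of the members was not tested. The members and lists were chosen with earlier results of these data known. Genes named besides the members were the 5 largest rises and 5 largest falls of the lists in each comparison, among called genes with a mean of at least 1 FPKM. For AXIN2, DKK1 and DKK3, the 3 genes with the highest Pearson correlation over the samples were named too. CXCL10 was named as a check of the IFNγ label.

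Gene models and transcript lengths came from GENCODE release 44 mapped to GRCh37 (4458 symbols matched directly, 417 through an older symbol, 99.1% with a length). Alternatives were median ratio scaling, quantile normalization, removal of the length trend of each sample (span 0.5) with its summed FPKM kept, a pseudocount of 0.1, restriction to genes averaging at least 1 FPKM, a fit of all 4 groups, a block for the replicate number, omission of single samples, eBayes without trend or robust, and a fold change over 1.5 with an unadjusted p under 0.05.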

Additional observations from a re-analysis of the deposited data

Results flagged for a closer look

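The response to SB-3CT differed between cells with and without IFNγ for 3 of the 10 members, by limma's test of the interaction over 12 samples on the deposited scale, where 22.3% of all genes were called (17.6% lower). This interaction was -0.41 for BCL9 (limma adjusted p = 0.0243), -0.38 for DVL2 (limma adjusted p = 0.0058) and -0.26 for DVL3 (limma adjusted p = 0.0397). BCL9 moved by -0.08 with SB-3CT alone and by -0.48 in the presence of IFNγ. DVL2 was at 0.04 and -0.34. DVL3 was at 0.20 and -0.06. The median of the interaction over the 3177 genes with a mean of at least 1 FPKM was -0.19. By quantile normalization DVL2 alone was called among the members (-0.22). By median ratio scaling DKK1 alone was called (0.34, limma adjusted p = 0.0433). Without the length trend 0 members were called by limma, with 418 of all genes called. There 2 members were at an unadjusted p below 0.05, beside 1102 of all 4918 genes.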

How the results depend on the processing

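For SB-3CT against control, 3 of the members, 11 of the 65 pathway genes (members included) and 602 of all 4918 genes were called. Among genes with a mean of at least 1 FPKM these were 5 of 9, 24 of 50 and 907 of 3173. All 4 groups in 1 fit gave 5 members, 19 pathway genes and 753 of all genes. A fold change over 1.5 with an unadjusted p below 0.05 (the fold rule) gave 0, 0 and 49. For IFNγ against control (1, 13 and 958), removal of the length trend gave 2, 18 and 1303, and the fold rule gave 0, 4 and 234. For SB-3CT + IFNγ against IFNγ (4, 35 and 1862), the fold rule gave 1, 9 and 367. Quantile normalization gave 20 pathway genes and 1256 of all genes, and removal of the length trend 17 and 908. The split of all genes called, 315 higher and 1547 lower as deposited, became 811 and 760 by median ratio, 542 and 714 by quantile normalization and 462 and 446 without the length trend. For SB-3CT + IFNγ against SB-3CT (5, 38 and 1994), median ratio scaling gave 2, 13 and 1179 and quantile normalization 1, 18 and 1357. Removal of the length trend gave 1, 16 and 1276, and the fold rule 0, 5 and 278. For the interaction (3, 21 and 1099), median ratio scaling gave 1, 11 and 641, quantile normalization 1, 10 and 640, removal of the length trend 0, 1 and 418, and the fold rule 0, 1 and 161. The fold rule is stricter than the adjusted threshold in the size of the change and looser in its unadjusted p. The cause of the shifts in these counts was not tested.

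With 1 sample left out at a time, members, pathway genes and all genes called ranged from 0 to 5, 0 to 20 and 73 to 912 for SB-3CT against control. The ranges were 0 to 1, 5 to 13 and 562 to 982 for IFNγ against control, 4 to 6, 26 to 37 and 1230 to 1977 for SB-3CT + IFNγ against IFNγ, 2 to 4, 26 to 34 and 1507 to 1780 for SB-3CT + IFNγ against SB-3CT, and 1 to 6, 11 to 28 and 678 to 1450 for the interaction.

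Over single members and alternatives, 677 values kept their sign and side of the threshold, 94 lost the call, 33 gained it and 41 turned in sign. Of the values that turned, only DVL3 for SB-3CT + IFNγ against IFNγ without the length trend (0.36) passed the test. Median ratio scaling turned IFNγ against control to 0.028 for AXIN1, SB-3CT + IFNγ against IFNγ to 0.17 for DVL3, SB-3CT + IFNγ against SB-3CT to 0.061 for AXIN1, 0.17 for DVL1 and 0.10 for DVL2, and the interaction to 0.033 for AXIN1 and 0.11 for DVL1. Quantile normalization turned SB-3CT against control to 0.0036 for AXIN2, 0.022 for BCL9 and 0.028 for BTRC, SB-3CT + IFNγ against IFNγ to -0.029 for DKK1 and 0.17 for DVL3, SB-3CT + IFNγ against SB-3CT to 0.050 for DVL1, and the interaction to 0.043 for AXIN1. Removal of the length trend turned SB-3CT against control to 0.022 for BCL9 and 0.036 for BTRC, IFNγ against control to -0.033 for APC and -0.038 for DVL1, SB-3CT + IFNγ against IFNγ to 0.059 for BTRC, SB-3CT + IFNγ against SB-3CT to 0.032 for AXIN1, 0.12 for DVL1 and 0.035 for DVL2, and the interaction to 0.10 for AXIN1, 0.024 for BTRC, 0.15 for DVL1 and 0.064 for DVL3. A pseudocount of 0.1 turned AXIN2 for SB-3CT against control to 0.0055. With a sample left out, signs turned for AXIN2 (SB-3CT against control, -0.023 to 0.027), for AXIN1 (-0.039 to 0.017), AXIN2 (-0.0023 to 0.049), BTRC (-0.13 to 0.027) and DVL1 (-0.043 to 0.052) with IFNγ against control, for DKK1 with SB-3CT + IFNγ against IFNγ (-0.0014 to 0.089), and for DKK3 in the interaction (-0.032 to 0.084).

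The replicate numbers share no stated source, and samples of the same number did not deviate together: over genes, their deviations from the group means correlated at 0.04, -0.01 and 0.07 for SB-3CT and control and at -0.39, -0.24 and -0.09 for SB-3CT + IFNγ and SB-3CT, and no comparison had all 3 above 0.1. With the replicate number as a block, SB-3CT against control had 1 member, 3 pathway genes and 259 of all genes called, and SB-3CT + IFNγ against SB-3CT had 2 members and 22 pathway genes, with 1361 of all genes; IFNγ against control, SB-3CT + IFNγ against IFNγ and the interaction had 775, 1609 and 1082 of all genes. The number of reads per sample is not stated, and counting error was not computed for APC, DKK3 or the other members above the lowest levels.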

Other observations

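For the 2 dickkopf genes and AXIN2, the genes with the most similar values over the 12 samples were listed, among those with a mean of at least 1 FPKM, as a description. The samples share library scaling and fall into treatment groups, both of which enter these correlations. DKK3 was closest to ASB9 (Pearson r = 0.98), a substrate receptor of ubiquitin ligases, ARL6IP5 (0.95) and ATG10 (0.95), an autophagy enzyme. DKK1 was closest to COMTD1 (0.82), C18orf32 (0.77) and COA5 (0.77). AXIN2, whose values rest on few steps of the lowest level, had its highest correlations with DCBLD1 (0.73), C19orf54 (0.71) and CCDC101 (0.71).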
